A study of Mus musculus with 6 samples.

Results

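Keratins are the intermediate filament proteins of epithelial cells, and each filament is built from pairs of 1 acidic (type I) and 1 basic (type II) chain. When a basal keratinocyte leaves the basement membrane it replaces its basal pair, Krt5 and Krt14, with Krt1 and Krt10, the pair that fills the spinous layer. Further type II keratins are added or substituted higher up or in parts of the hair follicle and glands. The 7 genes described here are the keratins of these suprabasal positions, chosen by name for that role: Krt1, Krt2, Krt77, Krt78, Krt79 and Krt80, which are type II, and Krt10, the only type I chain among them. All 7 were found, each with a single RefSeq transcript in the table, and all 7 had an adjusted p-value, among 11038 tested genes.

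The cells were primary epidermal keratinocytes from the skin of wild type C57BL/6 mouse pups aged 1 to 3 days, and RNA sequencing was done on 2 groups. The pro-miR-148a group (3 libraries) received 200 nM of pro-miR-148a to raise the microRNA miR-148a, and the control group (3 libraries) received miR-Control, with RNA taken 48 h later in both. All cells grew in medium with 0.05 mM calcium, a low concentration that keeps keratinocytes proliferating and holds back the switch to suprabasal keratins, which limits this culture as a model of the spinous layer. Nothing in the labels says whether the libraries of a group came from separate cultures or animals, so the p-values may measure technical spread. What was analysed is the authors' deposited table of the comparison, which gives for each transcript 1 base mean (the mean normalized count over the libraries), 1 log2 fold change with its standard error (SE) and 1 adjusted p-value. There is therefore no value per library, and neither the overlap of the groups nor the depth of a library is known.

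Which group stands on top of the fold changes is not stated in the table. Mature miR-148a-3p (RefSeq, GRCm38.p6) is shown because its seed, bases 2 to 8, decided how the signs of the table were read; the seed is in capitals.
mmu-miR-148a-3p: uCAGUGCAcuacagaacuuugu
The seed pairs with TGCACTG in a 3' untranslated region (UTR), and the same letters followed by A form an 8mer. In 433 tested genes with an 8mer the median log2 fold change as deposited was 0.10, against -0.01 in 6025 genes with no site. MicroRNAs lower the transcripts they pair with, so the deposited values are read as control over pro-miR-148a, as in the wording of the table's name, and every sign below is turned so that a positive value is higher with pro-miR-148a. In that reading the 8mer genes lay below the genes with no site in each of the 4 quartiles of UTR length, with differences of medians between -0.02 in the second and -0.16 in the third quartile. These are descriptions with no test, and every direction below would turn round with the reading.

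None of the 7 keratins had the full TGCACTG site in its longest annotated 3' UTR (GENCODE M21). Krt1 and Krt78 each had 1 match to its last 6 bases, GCACTG, a weak class of site. These windows are shown because the values of the pair went opposite ways. Capitals mark the match, and the base number given is that of the first capital, with 10 flanking bases on either side.
Krt1 (from base 304 of a 474-base 3' UTR): catgcccagaGCACTGggttgcccct
Krt78 (from base 95 of a 167-base 3' UTR): agcccactggGCACTGgagaaagtca
The other 5 members had no such match in UTRs of 376 to 2648 bases.

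Of the 7 keratins 4 fell with pro-miR-148a, 1 rose and 2 did not pass the adjusted p of 0.05 in the authors' deposited table. By the same rule 16.8% of all tested genes were lower and 16.7% higher. Krt77 and Krt79, which mark ducts, hair canal and patches of suprabasal epidermis, fell most. The spinous pair Krt1 and Krt10 fell by less. Krt78 rose, and the most abundant of the 7, Krt80, had a fold change near 0. The members' median log2 fold change was -0.88, against -0.01 over all tested genes. Since the members were chosen with earlier results of these data known, these counts and medians are descriptions. In bulk RNA, fewer cells that make a keratin and less of its RNA in each cell cannot be told apart.

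**Figure D1:**
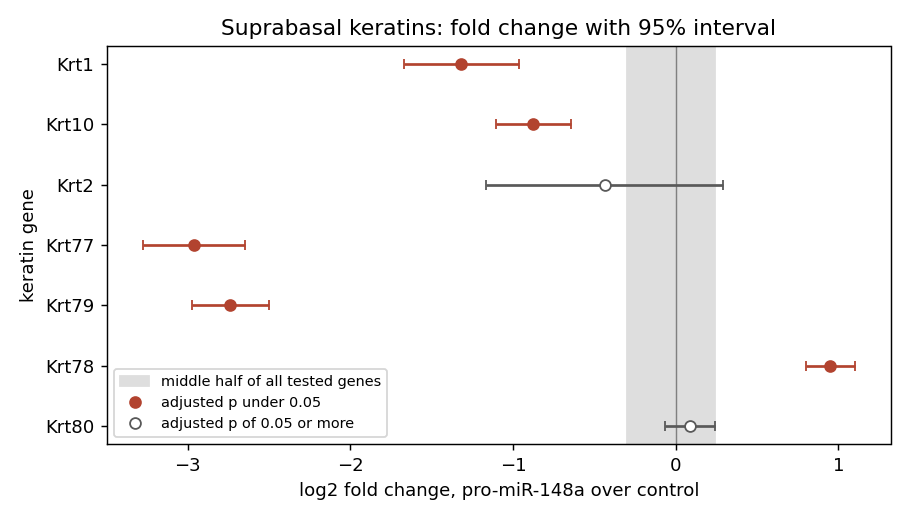
Log2 fold change (pro-miR-148a over control) of the 7 keratins, in rows, with 95% intervals from the authors' deposited table; the grey band runs from the lower to the upper quartile of all tested genes, -0.30 to 0.24. Krt1, Krt10, Krt77 and Krt79 lie left of the band, Krt78 right of it, and the intervals of Krt2 and Krt80 cross 0.

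The authors' deposited table puts Krt1, the type II chain of the spinous pair, at a log2 fold change of -1.32 ± 0.18 SE (base mean 6172, NM_008473, adjusted p = 3.47e-12). That is 2.49-fold lower, with a 95% interval of 1.95- to 3.18-fold. The base mean and the fold change together imply group means of 3537 normalized counts with pro-miR-148a and 8808 in control cells. Such implied means assume 3 libraries in each group and inherit the table's fold change, so they carry no error of their own. They are given below only to show the scale of each gene.

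For Krt10, the type I partner of Krt1, the authors' deposited table lists -0.88 ± 0.12 SE on the same log2 scale (base mean 2136, NM_010660, adjusted p = 1.32e-12). It was 1.84-fold lower (95% interval 1.57 to 2.15), with implied means of 1507 normalized counts with pro-miR-148a and 2765 in control cells. The intervals of the pair, -1.67 to -0.97 for Krt1 and -1.11 to -0.65 for Krt10 on the log2 scale, overlap. The genes were measured in the same libraries, and their difference was not tested. Per kb of transcript the implied level of Krt1 was 2.002 times that of Krt10 with pro-miR-148a and 2.72 times in control cells.

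Krt2, the type II keratin that joins or replaces Krt1 in the upper layers of ear, tail and sole skin in the mouse, was hardly counted in these cells. The authors' deposited table lists it at a base mean of 20.5 (NM_010668), and its log2 fold change, -0.44 ± 0.37 SE, missed the threshold (adjusted p = 0.428). The interval, -1.16 to 0.29, holds falls of more than 2-fold as well as no change. The deposited SE never exceeded 0.39, also for weakly counted transcripts, as in fits that shrink fold changes toward 0, and folds at such levels may be understated.

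Krt77, known in the mouse from suprabasal epidermis and sweat gland ducts, had the lowest value of the 7. The authors' deposited table gives its log2 fold change as -2.96 ± 0.16 SE (base mean 447, NM_001003667, adjusted p = 5.78e-74), and 9 of the 11038 tested genes lay lower. It was 7.79-fold lower (95% interval 6.27 to 9.69), with implied means of 102 normalized counts with pro-miR-148a and 791 in control cells. Per kb its implied level was 0.0481 of that of Krt10 with pro-miR-148a and 0.204 in control cells, a lower ratio with pro-miR-148a that was not tested.

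Krt79, a keratin of the hair canal and the sebaceous duct in the mouse, stood next, with a listed log2 fold change of -2.74 ± 0.12 SE (authors' deposited table, base mean 853, NM_146063, adjusted p = 8.25e-110). It was 6.67-fold lower (95% interval 5.65 to 7.86), with implied means of 222 normalized counts with pro-miR-148a and 1484 in control cells, and 14 tested genes lay below it. The intervals of Krt77 and Krt79 overlap each other. Both lie wholly below those of Krt1 and Krt10.

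Krt78, a type II keratin of suprabasal epidermis, went the other way. Its entry in the authors' deposited table is a log2 fold change of 0.95 ± 0.08 SE (base mean 7934, NM_212487, adjusted p = 4.95e-33), and 283 tested genes lay above it. It was 1.93-fold higher (95% interval 1.74 to 2.15), with implied means of 10458 normalized counts with pro-miR-148a and 5411 in control cells. By implied level per kb Krt78 stood above Krt1 with pro-miR-148a (3043 and 1441 normalized counts per kb) and below it in control cells (1574 and 3588).

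Krt80, a keratin described in human epithelia near the cell periphery and desmosomes, was the most abundant of the 7 by far. At 58315 its base mean (NM_028770, authors' deposited table) ranked 53rd of the tested genes. Its log2 fold change in the authors' deposited table, 0.09 ± 0.08 SE, missed the threshold (adjusted p = 0.454), and the interval of -0.07 to 0.24 allows a rise of at most 1.18-fold. Of the summed implied level per kb of the 7 genes, Krt80 held 78.6% with pro-miR-148a and 71.2% in control cells. That sum was 24946 normalized counts per kb with pro-miR-148a and 25901 in control cells, a log2 ratio of -0.05, whereas the sum of the other 6 was 5351 with pro-miR-148a and 7469 in control cells (log2 ratio -0.48). The 4 genes that fell held 9.22% of the summed level with pro-miR-148a and 22.7% in control cells.

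**Figure D2:**
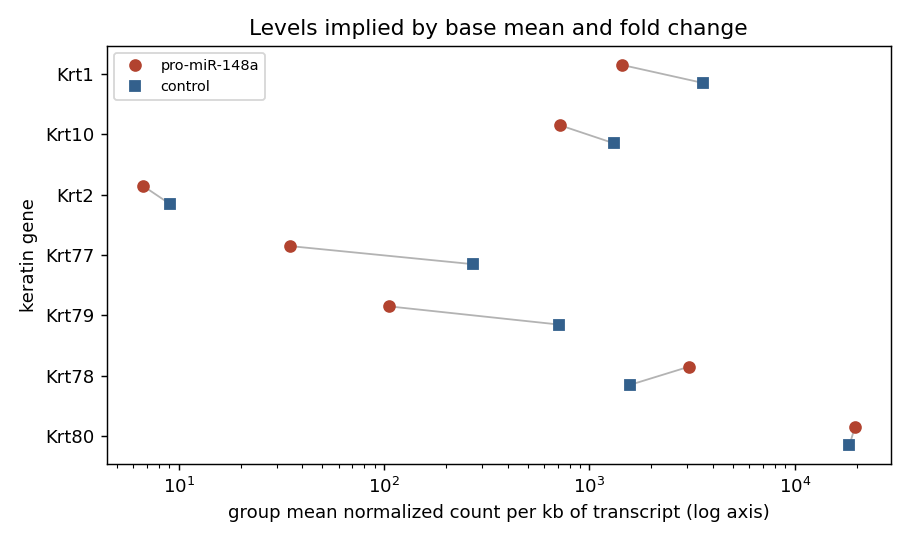
Group mean normalized counts per kb of transcript (log axis) implied by the authors' base mean and fold change, for pro-miR-148a (circles) and control (squares), with keratin genes in rows; no error can be drawn without values per library. Krt80 lies at 19596 with pro-miR-148a and 18431 in control cells, Krt77 at 34.6 with pro-miR-148a and 270.04 in control cells, and Krt78 alone among the called genes lies further right with pro-miR-148a.

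The order of levels per kb over both groups was Krt80 (19014 normalized counts per kb), Krt1 (2514), Krt78 (2309), Krt10 (1020.2), Krt79 (407), Krt77 (152) and Krt2 (7.86). Krt1 and Krt78 are neighbours in this order that changed places between the groups. Compared with the basal chain these levels were low: Krt5, the basal type II keratin, had 286959 normalized counts per kb, and the 7 keratins together took 0.286% of all base means in the table.

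A further background is the share of genes of like abundance that passed the test. Among the 1340 tested genes with base means within 2-fold of that of Krt1, 57.5% passed in either direction, and around Krt77 (1787 genes) 44.5% did. Around Krt2 (1925 genes) 12.1% passed. With a change of more than 2-fold also required, 3 of the 7 keratins were lower (Krt1, Krt77 and Krt79) and 0 higher, beside 4.48% of all tested genes lower and 2.31% higher.

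**Figure D3:**
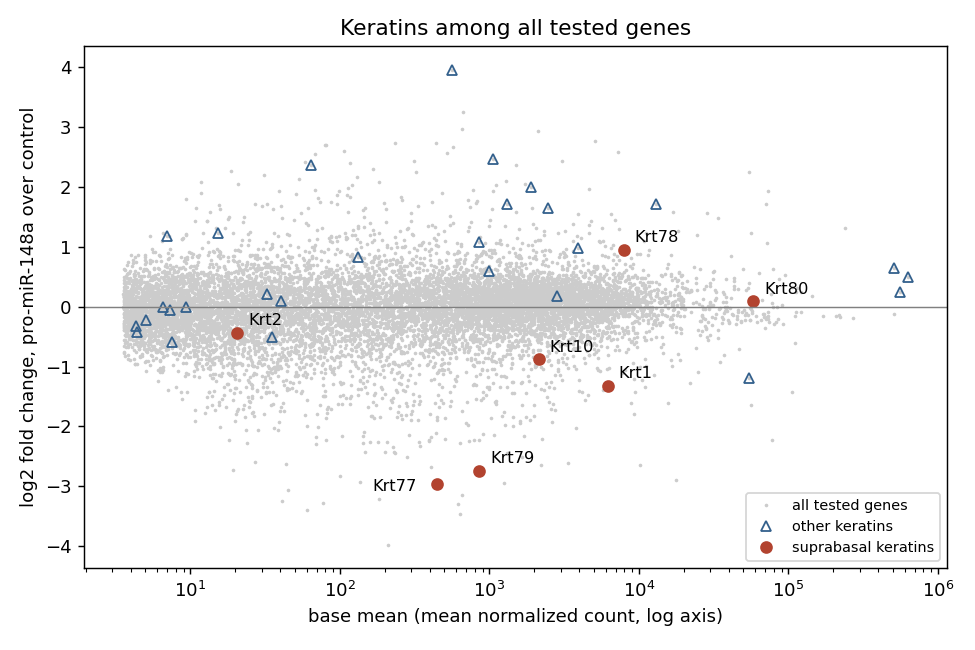
Base mean (log axis) against log2 fold change (pro-miR-148a over control) for all 11038 tested genes (grey dots), the other tested keratins (open triangles) and the 7 suprabasal keratins (red circles), from the authors' deposited table. Krt77 and Krt79 lie at the lower edge of the cloud, at -2.96 and -2.74, while most other well counted keratins lie above 0.

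The fold changes of the spinous pair had wider SEs than most genes of their level. The SE of Krt1, 0.18, was larger than that of 99.1% of the 1340 tested genes with similar base means, whose median SE was 0.07. For Krt10 the SE of 0.12 exceeded that of 98.0% of 2298 such genes (median 0.08). Krt80 had a wider SE than 92.6% of 122 genes of its level, Krt78 than 84.3% of 1025, Krt77 than 81.4% of 1787, Krt79 than 76.7% of 2143 and Krt2 than 41.3% of 1925. Other keratins, chosen here after their values were seen, differed in this. The SEs of Krt23 and Krt32 exceeded those of 42.9% of 1853 and 47.9% of 1529 genes of their level. Wide SEs were those of Krt15 (0.30), above 99.9% of 2197 genes, Krt8, above 98.2% of 2219, and Krt6b, above 95.3% of 128, by the authors' deposited table. Krt18, Krt19, Krt7 and Krt42 followed, above 94.7%, 94.5%, 93.9% and 92.1% of genes of their level. Krt75 stood above 79.8% and Krt4 above 68.8%. Wide SEs were thus not particular to the spinous pair. Lor, the major cornified envelope protein, chosen here after its value was seen, had a similarly wide SE of 0.19, above that of 99.3% of 284 genes of its level. Whether 1 library carried this spread was not tested, since no value per library was at hand.

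**Figure D4:**
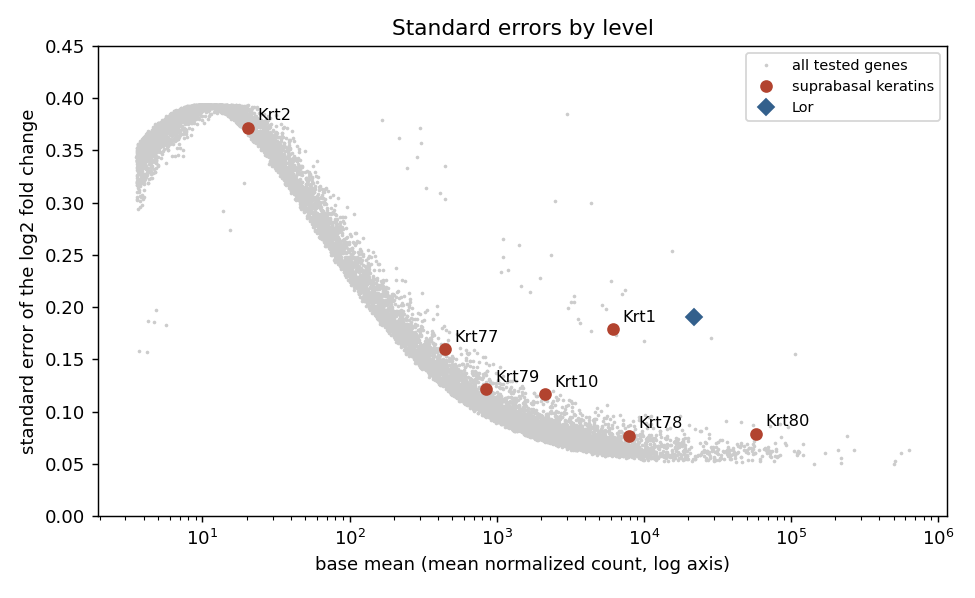
SE of the log2 fold change against base mean (log axis) for all tested genes (grey dots), the 7 keratins (red circles) and Lor (diamond), from the authors' deposited table. Krt1, at 0.18, and Lor, at 0.19, stand above the band of genes of their level, Krt10 at its upper edge, and the other 5 keratins within or near it.

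The other keratins mostly went the opposite way to the 4 that fell. Of 12 other type II keratins tested, 7 rose and 1 fell by the authors' deposited table while 4 missed the threshold, and their median log2 fold change was 0.54. That is 58.3% higher and 8.33% lower, beside 16.7% and 16.8% of all tested genes. Among 14 type I keratins other than Krt10, 9 rose and none fell, 5 missed the threshold, and the median was 0.90. Their share higher was 64.3%. Krt19, a type I keratin of simple and hair follicle epithelia, rose most, 15.5-fold (3.95 ± 0.16 SE), in the authors' deposited table. Among keratins with a base mean of at least 100, the simple epithelial Krt8 (5.54-fold), the follicle keratin Krt75 (4.003-fold), Krt7 (3.29-fold), Krt18 (3.27-fold) and the basal and bulge keratin Krt15 (3.12-fold) came next in the authors' deposited table. Krt42, Krt23, Krt32, Krt6a and Krt17 rose by smaller folds, between 2.11-fold for Krt42 and 1.19-fold for Krt17, in the authors' deposited table. Over all 35 tested keratins, which include Krt88 and Krt90 of neither list, 5 fell and 17 rose. Of all tested genes 16.8% were lower and 16.7% higher. Of the 5 keratins that fell 4 are suprabasal members, which were chosen with earlier results of these data known. The fifth was Krt6b, a keratin of wounded and hair follicle epithelium, at -1.19 ± 0.09 SE in the authors' deposited table. Krt5 was 1.41-fold higher in the authors' deposited table (0.49 ± 0.06 SE, adjusted p = 1.9e-13), opposite in sign to the spinous type II chain Krt1. The basal type I chain could not be set beside Krt10: of 3 Krt14 transcripts 2 were listed at 0, and the authors' deposited table gives the remaining one a base mean of 40.3. Krt16, the type I keratin of activated epidermis, was listed at 0. Krt14 and Krt16 each have more than 1 transcript in the table, whereas each of the 7 members has 1 and none is at 0. Keratins are paralogs with similar sequences, and how reads shared between them were counted is not given in these sources.

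All 6 type II members lie in the keratin cluster of chromosome 15, and Krt10 lies in the type I cluster of chromosome 11 (order of protein-coding genes from RefSeq, GRCm38.p6). Krt2, Krt1 and Krt77 are direct neighbours there, and all 3 had negative fold changes in the authors' deposited table, of which those of Krt1 and Krt77 passed the test. Krt79 and Krt78 are also neighbours, and they went opposite ways, at -2.74 and 0.95. Beyond Krt78 follow Krt8 and Krt18, keratins of simple epithelia, at 2.47 ± 0.14 SE and 1.71 ± 0.12 SE in the authors' deposited table. On the other side of Krt79 lies Krt4, an oral mucosa keratin, at 0.60 ± 0.11 SE (adjusted p = 6.61e-07). Higher and lower genes thus alternated at Krt4, Krt79 and Krt78. Krt80, at the far end, is followed by Krt7, a simple epithelial keratin that rose 3.29-fold in the authors' deposited table.

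**Figure D5:**
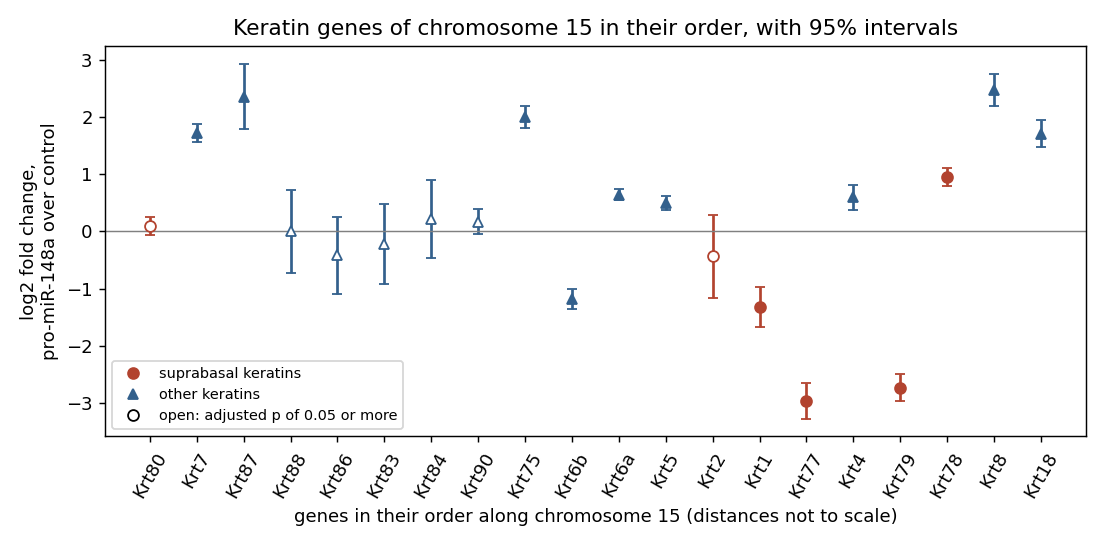
Log2 fold change (pro-miR-148a over control) with 95% intervals of the tested protein-coding keratin genes of chromosome 15, from the authors' deposited table. They stand in their order along the chromosome, and Krt74, which was tested, is left out. Red circles are the suprabasal keratins and open symbols did not pass the adjusted p of 0.05. Krt2, Krt1, Krt77 and Krt79 lie below 0, with Krt4 above 0 between the last pair and Krt78 above 0 beside Krt79.

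The promoters of genes that fell together, and of the neighbour that rose, are shown with the motifs found in them. RefSeq (GRCm38.p6) windows of 250 bases before to 50 bases after the start were at hand for Krt2, Krt10, Krt77, Krt78 and Krt79. Both strands were searched for TATAAA (the core promoter box), TGANTCA (AP-1), GCCNNNGGC (AP-2), CCACCC (KLF and Sp factors), TTGCNNAA (C/EBP), AACNGGTT (GRHL) and CAGGTG (an E-box); each window is given 5' to 3' along the gene and capitals mark every match.
Krt77 (chr15:101869656-101869955, minus strand): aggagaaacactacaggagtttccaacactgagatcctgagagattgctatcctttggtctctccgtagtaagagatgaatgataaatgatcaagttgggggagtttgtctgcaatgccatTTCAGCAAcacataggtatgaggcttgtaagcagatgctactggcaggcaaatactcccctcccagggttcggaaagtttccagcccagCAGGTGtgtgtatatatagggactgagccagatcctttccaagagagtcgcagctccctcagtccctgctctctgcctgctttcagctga
Krt79 (chr15:101940275-101940574, minus strand): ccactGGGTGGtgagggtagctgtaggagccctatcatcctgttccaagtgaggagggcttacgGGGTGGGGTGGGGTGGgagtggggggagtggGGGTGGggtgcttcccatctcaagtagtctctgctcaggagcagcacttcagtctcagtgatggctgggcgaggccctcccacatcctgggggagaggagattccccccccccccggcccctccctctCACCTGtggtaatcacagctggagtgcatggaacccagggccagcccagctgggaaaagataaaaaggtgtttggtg
Krt10 (chr11:99389315-99389614, minus strand): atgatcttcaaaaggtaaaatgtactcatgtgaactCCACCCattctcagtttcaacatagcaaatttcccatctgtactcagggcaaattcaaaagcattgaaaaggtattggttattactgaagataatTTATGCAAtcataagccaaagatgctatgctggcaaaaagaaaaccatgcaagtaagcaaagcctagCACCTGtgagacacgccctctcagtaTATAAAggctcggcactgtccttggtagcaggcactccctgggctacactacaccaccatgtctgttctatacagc
Krt78 (chr15:101954238-101954537, minus strand): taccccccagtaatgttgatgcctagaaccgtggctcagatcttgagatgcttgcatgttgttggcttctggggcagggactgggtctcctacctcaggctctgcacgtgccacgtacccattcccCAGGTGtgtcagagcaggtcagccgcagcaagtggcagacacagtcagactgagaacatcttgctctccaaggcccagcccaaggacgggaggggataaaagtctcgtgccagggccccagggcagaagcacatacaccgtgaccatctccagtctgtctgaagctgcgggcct
The E-box letters CAGGTG were found in these 4 windows, on either strand, and not in that of Krt2. Of the promoters of tested genes 18.7% hold it, and 20.03% of all 27025 promoters. In Krt77, Krt79 and Krt10 it begins 40, 27 and 52 bases before the start (-40, -27 and -52), and in Krt78 further upstream (-124). The KLF and Sp letters matched in Krt79, at 5 positions of which 3 overlap one another, and in Krt10, against 37.0% of the promoters of tested genes. C/EBP letters matched in Krt77 and Krt10 (8.38%), and TATAAA in Krt10 (7.93%). AP-1 (5.68%), AP-2 (24.99%) and GRHL letters (1.86%) matched in none of the 5 windows. A match describes these letters only, and Krt78 shares the E-box with genes that fell.

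A list of other spinous and granular genes, chosen with earlier results of these data known, was mostly lower too. Genes of these layers outside the list were not counted. Of 12 tested genes of that list, which holds no keratins, 8 fell and none rose by the authors' deposited table. That is a share of 66.7% lower beside the 16.8% of all tested genes. The median log2 fold change of the 12 was -0.31. Dmkn (5 transcripts) and Tgm1 (3 transcripts), at base means of 5.57 and 19.2, were among those that did not pass. Calml3, a calmodulin-like protein of differentiating epithelia, stood 2.99-fold lower in the authors' deposited table, with -1.58 ± 0.11 SE and an adjusted p of 8.23e-43. Lor fell 2.42-fold (-1.28 ± 0.19 SE) and Ivl, the envelope precursor involucrin, 1.52-fold (-0.60 ± 0.08 SE), in the authors' deposited table. Tgm3, a transglutaminase that cross-links the envelope, was 1.41-fold lower by the authors' deposited table, with -0.50 ± 0.15 SE and an adjusted p of 0.00503. The remaining called genes of the list fell by less, between 1.28- and 1.11-fold in the authors' deposited table. Krtdap was listed at 0 in each of its 4 transcripts, and Flg was not analysed here.

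Proteins that anchor keratin filaments did not follow one side. Of 8 tested plakins and desmosomal linkers 2 rose, 1 fell and 5 did not pass in the authors' deposited table (median -0.13). By the same rule 16.7% of all tested genes were higher and 16.8% lower, and no test compared the 8 with them. Ppl, periplakin, rose 2.09-fold (1.06 ± 0.09 SE), Jup, plakoglobin, rose 1.25-fold (0.33 ± 0.06 SE) and Dsp, desmoplakin, which ties keratins to the desmosome, fell 1.13-fold (-0.18 ± 0.06 SE with an adjusted p of 0.0161) by the authors' deposited table. Among 17 tested transcription factors of keratinocyte differentiation 6 rose, 4 fell and 7 did not pass (median 0.17). Their shares were 35.3% higher and 23.5% lower, beside 16.7% higher and 16.8% lower of all tested genes. Ovol1, a zinc finger repressor that acts in keratinocyte differentiation, rose 1.77-fold, Grhl3 of the barrier programme 1.65-fold and the homeobox gene Dlx3 1.47-fold, while the AP-1 subunit Fosl1 fell 1.44-fold (-0.52 ± 0.17 SE with an adjusted p of 0.00801), all by the authors' deposited table. Cebpa, Cebpb, Trp63 and Gata3 were listed at 0 in every transcript and give no information.

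Some categories of the authors' GO table name keratin, the cornified envelope or the epidermis. Only the cornified envelope and keratinocyte development are given here, with 29 changed genes of 47 and 1 of 4. These counts do not separate higher from lower genes. The authors' test of over-representation gave the cornified envelope an adjusted p of 5.19e-05. Keratinocyte development was not over-represented by that test. No share of changed genes over all genes was at hand beside these counts. How changed genes were picked for that table is not stated.

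The label of the cells was set against its markers. Of 6 keratinocyte markers Krt5, with 1 transcript, was the most abundant gene of those named here. Trp63, with 8 transcripts, was listed at 0. Krt14, Col17a1, Itga6 and Itgb4, with 2 or 3 transcripts each, lay between 4.22 and 40.3 normalized counts by the authors' deposited table. How reads shared between transcripts of 1 gene were counted is not given, so these low values do not show that the markers were absent. Fibroblast markers were mostly lower: 5 of 8 tested fell and none rose. Their summed implied mean was 21257 normalized counts with pro-miR-148a and 28853 in control cells, with Pdgfrb listed at 0. Thy1 fell 1.81-fold and Col3a1, Col1a2 and Col1a1 fell 1.44-, 1.35- and 1.34-fold in the authors' deposited table. Immune markers summed to 411 with pro-miR-148a and 548 in control cells, with 2 of 3 tested lower and Ptprc and Cd207 listed at 0. The macrophage genes Lyz2 and C1qa, at base means of 43.8 and 19.4, had log2 fold changes of -2.63 ± 0.34 SE and -2.72 ± 0.39 SE in the authors' deposited table, whereas Cd68 missed the threshold at -0.16 ± 0.14 SE (adjusted p = 0.463). Melanocyte markers summed to 14580 with pro-miR-148a and 15428 in control cells, with 1 of 4 tested lower (Mlana, 1.44-fold in the authors' deposited table) and Tyrp1 listed at 0. Merkel cell markers summed to 3876 with pro-miR-148a and 1024 in control cells, nearly all of it Krt8 and Krt18, and 2 of 5 rose. For the glands in which Krt77 and Krt79 are also known, the sebaceous markers Mc5r and Awat1 stood at 3.41 and 0.889 normalized counts in the authors' deposited table, with Plin5 listed at 0. Scd1, which most lipid-making cells express, was 1.42-fold lower in the authors' deposited table. The sweat gland markers summed to 13.4 normalized counts with pro-miR-148a and 13.4 in control cells, with Foxi1 listed at 0. The part of these other cell types in the keratin values was not tested.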

How the data were processed

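RNA sequencing of 6 libraries (3 pro-miR-148a, 3 control) is described by 2 deposited tables. For 42885 RefSeq transcripts the authors deposited, per the file headers, the base mean (a signal, the average normalized count of all libraries), the log2 fold change with its SE on that scale, the Wald score (the ratio of these), and raw and adjusted p-values. The authors' GO table holds numbers of genes and p-values per category. The submitters' processing notes name DESeq2 and mm9 without saying how they were used; aligner, counter and annotation: not given in the sources used here. Because no counts per library were at hand, no edgeR test was run and the authors' adjusted p under 0.05 stands as the test.

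Accessions were paired with symbols (42739 matched, GRCm38.p6), and the transcript with the highest base mean stands for a gene. Signs were turned so that positive is higher with pro-miR-148a. Implied group means split the base mean by the fold change; lengths came from GENCODE M21 transcripts matched by RefSeq accession. Intervals are 95% Wald intervals from the deposited SE. The recentred Wald test and the adjustment were tested on simulated data. Python 3.11.15, pandas 2.3.3, numpy 2.4.6, scipy 1.17.1 and matplotlib 3.10.9 were used. Named genes are the 7 members, other keratins past the threshold whose base mean reaches 100, and up to 4 called genes per list. The members and lists were chosen with earlier results of these data known. Library depth is unknown, so no counting interval is given.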

Additional observations from a re-analysis of the deposited data

How the results depend on the processing

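The counts of 4 keratins lower and 1 higher were recomputed under 8 alternatives: the transcript with the smallest p-value, adjustment over 1 transcript per gene, no filter on base mean, a base mean of at least 100, an adjusted p under 0.01, log2 fold changes recentred on all tested genes (their median was -0.01) or on the 3569 whose base mean reaches 1000 (0.05), plus a change of more than 2-fold. Of these, 7 gave the same 2 counts. The share of all tested genes called under these 7 ran between 10.9% lower and 10.9% higher with no filter on base mean and 24.6% lower and 28.1% higher with a base mean of at least 100, beside 16.8% lower and 16.7% higher as reported. With more than 2-fold required, 3 were lower and 0 higher, because the table lists Krt10 at 1.84-fold and Krt78 at 1.93-fold. No member's direction turned under any of the 8, and Krt80, at 0.04 to 0.10, and Krt2, at -0.48 to -0.42, passed in none. This was largely fixed beforehand, since all 8 reuse the deposited fold changes and SEs. Only recentring moves a fold change, by the medians given above. Each member has 1 transcript, so choosing the transcript with the smallest p-value changes nothing for it. How alignment or counting bears on the counts was not tested. The minimum base mean of 100 leaves out Krt2. Over the alternatives the adjusted p of Krt1 ran between 5.5e-13 and 5.4e-12, and that of Krt10 between 7.15e-14 and 2.61e-12.

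No paired analysis was possible because the deposited table has no column per library; leaving out a replicate was not run for the same reason. Every direction rests on the reading of the numerator.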
